A study of Mus musculus with 7 samples.

Results

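The transcripts of 9 genes of JAK-STAT and gp130 cytokine signalling were followed in fetal muscle fibers: the receptor genes *Il6st*, *Lifr* and *Osmr*, the kinase genes *Jak1* and *Jak2*, the transcription factor genes *Stat3*, *Stat5a* and *Stat5b*, and the inhibitor gene *Socs3*. They were taken by gene symbol from the 31531 genes of the deposited table, and all 9 were found and passed the filter on low values (a mean normalized count of at least 5), as did 25791 genes in all. Fibers were isolated from the epaxial muscles, which run along the back, of E17.5 fetuses on a C57BL/6 background. There were 4 WT fetuses and 3 dyW fetuses, with 1 library from each fetus. The dyW fetuses were homozygous for the dyW allele of *Lama2*, which disrupts the gene for the laminin α2 chain in every cell and models LAMA2-CMD, and both genotypes came from crosses of heterozygotes. The labels name no treatment for either group.

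Cytokines of the IL-6 family bind receptor complexes that share gp130, the protein encoded by *Il6st*. Leukemia inhibitory factor uses gp130 with the receptor encoded by *Lifr*, and oncostatin M in the mouse uses gp130 mainly with the receptor encoded by *Osmr*. The kinases JAK1 and JAK2 sit on the inner side of these receptors and phosphorylate STAT3, which enters the nucleus and switches on genes that include *Socs3*, whose product binds gp130 and shuts the signal down. STAT5A and STAT5B act chiefly downstream of hormone receptors such as that for growth hormone. In skeletal muscle, the pathway is known for its part in the proliferation and differentiation of myogenic progenitors and in muscle wasting. The counts here are of RNA, and STAT activity, which depends on phosphorylation, was not measured.

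Normalized counts are reads per gene divided by 1 size factor per library, and the reads behind them ranged from 470804 to 2220813 per library in WT and from 3663905 to 18297106 in dyW. *Lama2*, the targeted gene, had 90.6 to 111 normalized counts in WT, 4.29 in dyW1 and 6.07 in dyW2, but 139.7 in dyW3, which is therefore called the library labelled dyW3, and the log2 fold changes of the 9 members are also given without it. Gene totals do not show which part of *Lama2* the reads came from. Libraries WT1 and dyW1 also stood apart. The summed normalized count of 8 myofiber genes was 2282 in WT1 and 13128 to 67404 in the other WT libraries, and 22.2 in dyW1 against 6912 in dyW2 and 4073 in the library labelled dyW3. In dyW1, 5 of these 8 genes had no read (*Ckm*, *Myh3*, *Myh8*, *Tnnc2* and *Actn2*), so the defining markers of the labelled cell type were largely absent there. The sum of 7 fibroblast genes was 4174 to 14747 in WT and 21951 to 32625 in dyW, and that of 5 endothelial genes was 328 to 525 in WT and 555 to 1258 in dyW. Fewer cells of a type and less RNA per cell cannot be told apart in such samples.

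Among the 9 genes, *Lifr* alone passed the test between genotypes, and it was higher in dyW. No member was called lower (0 also at an unadjusted p under 0.05 and 0 with voom), although 29.6% of all genes tested were lower in dyW and 1.01% were higher (limma, adjusted p under 0.05). The median log2 fold change (dyW over WT, on the log2(normalized count + 1) scale) of the 9 members was 0.18, beside -1.99 over all genes tested. Over the 6111 genes with a mean of at least 50 the median was 0.20, close to that of the members. That mean includes the dyW libraries, so genes lost in dyW fall below it more readily. The split therefore does not cleanly place the shift in genes of low count. Among the 6005 genes with a mean from 50 to 1000 normalized counts, where 7 of the 9 members lie, 5.0% were lower and 4.05% were higher. The shift also moved with the scaling, as the median over all genes was -1.24 when every library had the same total and -0.15 with quantile normalization, and the members' medians were then 1.32 and 0.37. None of the 9 members passed the thresholds of the study (adjusted p under 0.01 and an absolute log2 fold change over 1.5), which 18.8% of all genes tested passed. Every dyW library was below every WT library for 31.5% of all genes tested and for none of the 9 members.

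**Figure D1:**
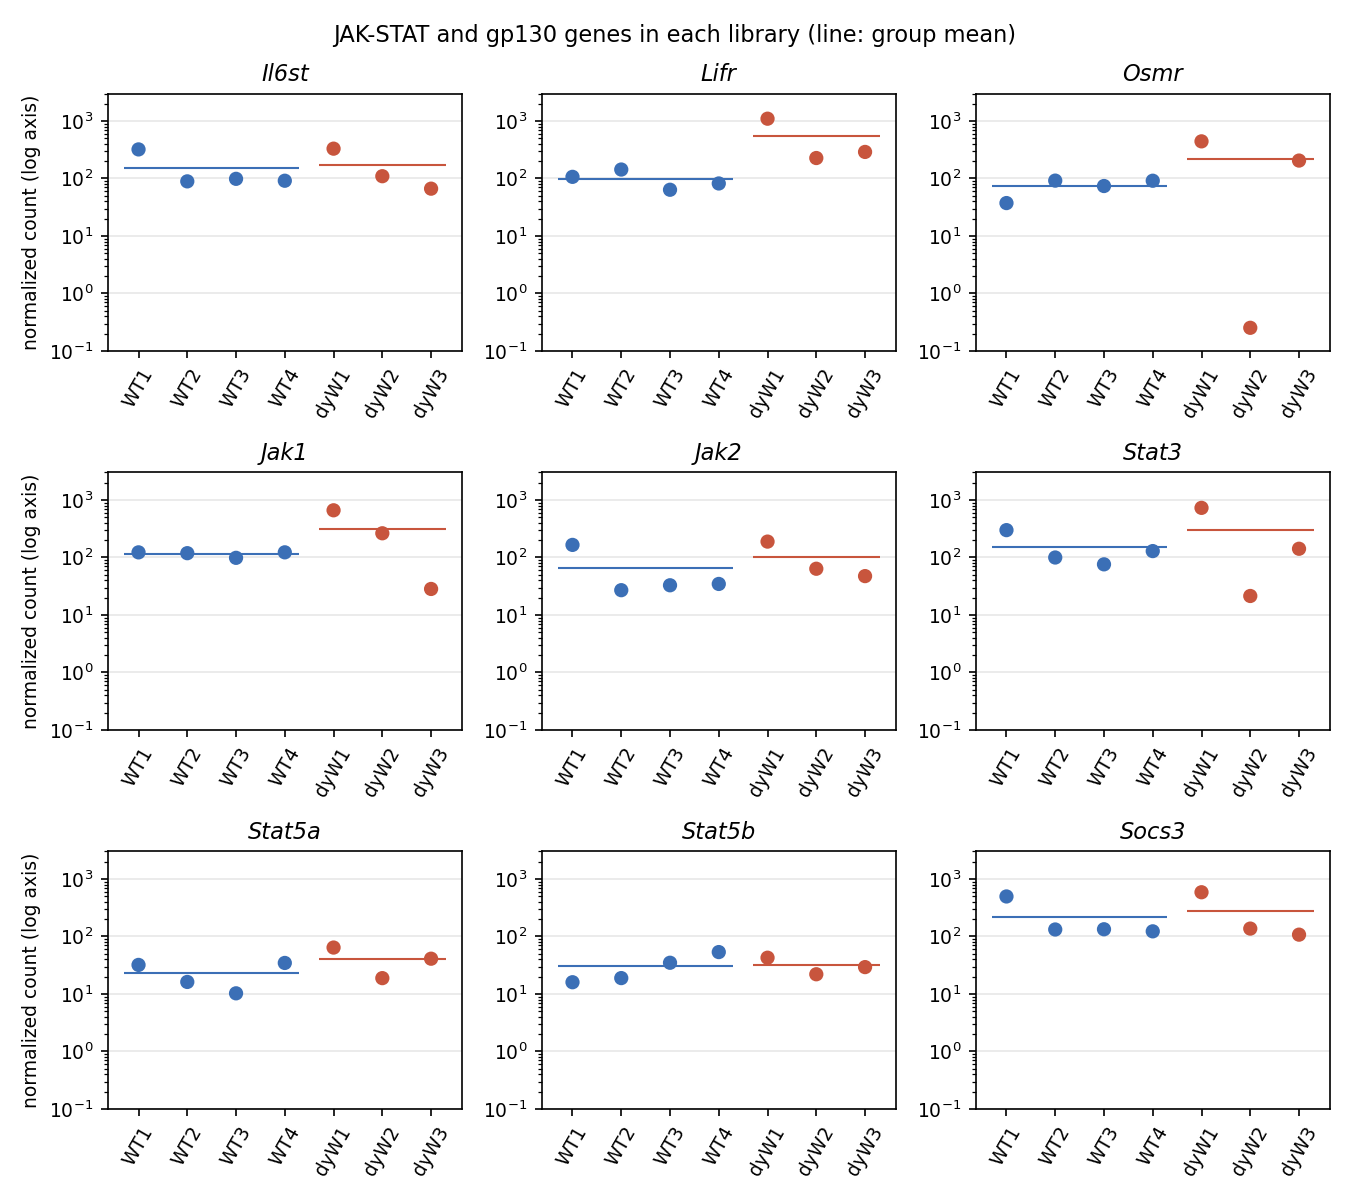
Normalized count (log axis) of each of the 9 genes in the 4 WT libraries (blue) and the 3 dyW libraries (red), with a line at each group's mean. Library dyW1 is the highest dyW library in 9 of 9 panels, *Lifr* is the panel in which the groups do not overlap, and the lowest point of all is *Osmr* in dyW2 (0.253).

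*Lifr* (ENSMUSG00000054263, chr15:7120095-7226970, plus strand, GRCm39) encodes the receptor chain that binds leukemia inhibitory factor and pairs with gp130. Its normalized counts were 107, 143, 63.6 and 81.8 in WT1 to WT4, and 1094, 227 and 289 in dyW1 to dyW3. Every dyW library was above every WT library, which held for 3.28% of all genes tested, and the highest value was that of dyW1. The group means were 98.7 ± 34.3 (SD, n = 4) and 536 ± 484 (SD, n = 3), a ratio of 5.43. The difference on the log2 scale was 2.13 (SE 0.674, 95% interval 0.60 to 3.66; limma, adjusted p = 0.0410, and 0.0201 to 0.343 over the alternatives). The exact two-sided permutation test over the 35 assignments of the libraries to groups gave p = 0.0571, the smallest that 4 against 3 libraries allow. The call was lost when any 1 WT library or dyW1 was left out (adjusted p = 0.0669 to 0.115), while the direction held and the log2 fold change ran from 1.43 without dyW1 to 2.56 without dyW2. Without the library labelled dyW3 it was 2.39 (limma, adjusted p = 0.0369). The summed fibroblast and endothelial markers were also higher in each dyW library than in any WT library, and none of these genes was at 0 in any library. Their single genes were less uniform. In dyW1, where *Lifr* was highest, the fibroblast sum was the lowest of the dyW libraries and was mostly the collagen genes *Col1a1* (8467) and *Col1a2* (12046), whereas *Col3a1* (232) was below every WT library and *Dcn*, *Lum* and *Postn* lay within the WT range. *Pdgfra* was above every WT library in all 3 dyW libraries (280.4, 296 and 337, against at most 123 in WT), and it and *Col1a2* were the fibroblast genes that passed the test (log2 fold changes 1.98 and 2.10; limma, adjusted p = 0.0286 and 0.0157). Of the 5 endothelial genes none passed (limma), with log2 fold changes of 2.19 for *Tek*, 1.88 for *Emcn*, 0.67 for *Kdr*, 0.57 for *Cdh5* and -0.57 for *Pecam1*. The part of these cells in the result was not tested.

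*Il6st* (ENSMUSG00000021756, chr13:112600604-112646620, plus strand) encodes gp130 itself, the chain that all cytokines of the family share. It had 319.9, 89.0, 98.5 and 91.3 normalized counts in WT1 to WT4, and 329.5, 109 and 66.4 in dyW1 to dyW3. WT1 and dyW1 were alike and high, the other 5 libraries lay close together, and the groups overlapped fully. Between genotypes the log2 fold change was 0.08 (SE 0.753, 95% interval -1.63 to 1.79; limma, adjusted p = 0.944), and 0.58 without the library labelled dyW3. The number of *Lifr* reads for each *Il6st* read was 0.333, 1.61, 0.646 and 0.897 in WT1 to WT4, and 3.32, 2.07 and 4.35 in dyW1 to dyW3. This ratio was also higher in every dyW library than in any WT library. It does not depend on the size factors, but it rests on the same *Lifr* reads. In WT both genes lay near the median of the odorant and vomeronasal receptor genes described below (1.38 times for *Il6st* and 1.41 times for *Lifr*).

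*Osmr* (ENSMUSG00000022146, chr15:6843053-6904450, minus strand), which encodes the oncostatin M receptor chain, varied more among the dyW libraries than any other member. It had 37.3, 91.7, 73.8 and 91.3 normalized counts in WT1 to WT4, and 442, 0.253 and 205 in dyW1 to dyW3. The value in dyW2 rests on 2 reads, in the library with the most reads, whereas dyW1 and the library labelled dyW3 were both above every WT library. The dyW libraries thus spanned 1746-fold and the WT libraries 2.46-fold. The log2 fold change of -0.54 (SE 1.77, 95% interval -4.56 to 3.49; limma, adjusted p = 0.838) had the widest interval of the 9 members. It became 2.10 without dyW2 (limma, adjusted p = 0.0517) and -1.58 without the library labelled dyW3. Its mean was higher in dyW (215 ± 221, n = 3) than in WT (73.5 ± 25.5, n = 4), opposite in sign to the log2 fold change.

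Of the 2 kinase genes, *Jak1* (ENSMUSG00000028530, chr4:101008838-101122487, minus strand) was the steadiest member in WT. Its kinase is the one that gp130 needs most. The normalized counts were 123, 119, 98.5 and 123 in WT1 to WT4, a 1.25-fold range, and 661, 263 and 28.3 in dyW1 to dyW3, a 23.3-fold range. Libraries dyW1 and dyW2 were above all WT libraries and the library labelled dyW3 was below all of them. With all 7 libraries the log2 fold change was 0.57 (SE 0.967, 95% interval -1.62 to 2.76; limma, adjusted p = 0.681), and the exact permutation p was 0.286. Without the library labelled dyW3 it was 1.85 and passed the test (limma, adjusted p = 0.0425), whereas without dyW1 it was -0.40.

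*Jak2* (ENSMUSG00000024789, chr19:29228677-29290505, plus strand) encodes the kinase that also serves the receptors for growth hormone, prolactin and erythropoietin. It had 165, 27.0, 32.8 and 34.6 normalized counts in WT1 to WT4, and 189, 63.6 and 47.4 in dyW1 to dyW3. Apart from WT1, each WT library was below each dyW library, and WT1 lay between dyW1 and dyW2. Its log2 fold change was 0.79 (SE 0.838, 95% interval -1.11 to 2.69; limma, adjusted p = 0.499), and it was 1.38 without WT1 and 1.19 without the library labelled dyW3, neither of which passed the test.

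*Stat3* (ENSMUSG00000004040, chr11:100775924-100830450, minus strand) encodes the main transcription factor of gp130 signalling. The paper's discussion cites earlier work that found increased JAK/STAT3 signalling in fetal dyW muscle. The normalized counts of *Stat3* were 299, 99.8, 75.9 and 129 in WT1 to WT4, and 728, 21.4 and 142 in dyW1 to dyW3. Library dyW1 was above all WT libraries, dyW2 was below all of them and the library labelled dyW3 lay among them. The WT mean of 151 ± 101 (SD, n = 4) and the dyW mean of 297 ± 378 (n = 3) differed by less than the spread within dyW. On the log2 scale the difference was 0.01 (SE 1.10, 95% interval -2.48 to 2.50; limma, adjusted p = 0.996). It ran from -1.22 without dyW1 to 1.29 without dyW2, was -0.05 without the library labelled dyW3, and no library left out brought it past the test. *Stat3* and *Stat5a* overlap at their ends on opposite strands, and since the strand setting of the counting is not given in the sources used here, reads of one may have been lost or counted for the other.

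*Stat5a* (ENSMUSG00000004043, chr11:100750177-100776065, plus strand) and *Stat5b* (ENSMUSG00000020919, chr11:100671556-100741589, minus strand) are neighbours and encode near-identical factors. Of all 50-base stretches of their annotated exons, 6.91% of those of *Stat5a* and 8.36% of those of *Stat5b* occur in the other gene, and reads lying wholly within such a stretch would not map uniquely. *Stat5a* had 32.0, 16.2, 10.3 and 34.6 normalized counts in WT1 to WT4, and 64.1, 18.8 and 41.0 in dyW1 to dyW3. *Stat5b* had 16.0, 18.9, 34.9 and 53.5 in WT1 to WT4, and 42.7, 22.0 and 29.3 in dyW1 to dyW3. The groups overlapped for both genes. These were the members with the fewest reads, from 3 to 17 per WT library, so that counting error alone is large there. The log2 fold changes were 0.79 for *Stat5a* (SE 0.748; limma, adjusted p = 0.444) and 0.13 for *Stat5b* (SE 0.692; limma, adjusted p = 0.899), and 0.72 and 0.15 without the library labelled dyW3.

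*Socs3* (ENSMUSG00000053113, chr11:117856905-117860898, minus strand) is the feedback inhibitor of gp130 and a direct STAT3 target, and its promoter is known for STAT-binding elements. Of the RefSeq windows from 250 bases before to 50 after the annotated starts of the members, the *Socs3* window (chr11:117860143-117860442, minus strand, GRCm39) was the one with a match to the STAT motif TTCNNNGAA, which reads the same on both strands. It is printed 5′ to 3′ with the match in capitals, 154 bases before the start, beside the *Il6st* window (chr13:112600354-112600653, plus strand), which has no match; these genes are shown because their counts followed each other most closely.

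Socs3 promoter window: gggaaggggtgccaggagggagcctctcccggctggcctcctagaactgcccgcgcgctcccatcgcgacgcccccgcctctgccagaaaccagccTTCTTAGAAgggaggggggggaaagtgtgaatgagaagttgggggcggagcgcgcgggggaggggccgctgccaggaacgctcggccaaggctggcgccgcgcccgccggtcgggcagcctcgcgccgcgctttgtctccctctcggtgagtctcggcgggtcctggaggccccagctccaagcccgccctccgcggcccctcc
Il6st promoter window: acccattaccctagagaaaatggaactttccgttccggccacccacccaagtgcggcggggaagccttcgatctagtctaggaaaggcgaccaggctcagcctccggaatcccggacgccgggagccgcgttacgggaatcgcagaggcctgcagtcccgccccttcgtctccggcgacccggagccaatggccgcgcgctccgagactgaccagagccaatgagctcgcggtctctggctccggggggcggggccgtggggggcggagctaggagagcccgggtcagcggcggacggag

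Of 32851 such windows 8.3% hold the motif, as do 9.55% of the 27025 genes with a window, so 1 of 9 members with a match is close to the share among all genes. The match is a description of the letters and not a site shown to be bound in these cells. The windows contained 73.3% G and C for *Socs3* and 68.3% for *Il6st*.

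*Socs3* had 496, 132, 133 and 123 normalized counts in WT1 to WT4, and 587, 137 and 107 in dyW1 to dyW3. As for *Il6st*, WT1 and dyW1 were high and alike, and the other libraries of both genotypes lay within a narrow band. Its log2 fold change was 0.18 (SE 0.788, 95% interval -1.61 to 1.97; limma, adjusted p = 0.879), and 0.65 without the library labelled dyW3. The number of *Socs3* reads for each *Il6st* read was 1.55, 1.48, 1.35 and 1.34 in WT1 to WT4, and 1.78, 1.25 and 1.62 in dyW1 to dyW3. The ratio therefore stayed between 1.25 and 1.78 in all 7 libraries, while *Il6st* spanned 4.96-fold and *Socs3* 5.46-fold.

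Over the 7 libraries, *Socs3* was the gene nearest to *Il6st*, and *Il6st* the gene nearest to *Socs3*, among 6110 other genes with a mean of at least 50. Likeness was the root mean square distance between log2(normalized count + 1) values centred on each gene's mean, and it was 0.163 for this pair. After *Socs3*, the genes nearest to *Il6st* were *Glg1* (0.178), which encodes a Golgi glycoprotein, and *Med13* (0.213), which encodes a subunit of the Mediator complex. After *Il6st*, those nearest to *Socs3* were *Cd109* (0.186), which encodes a surface protein, and *Fgfr2* (0.230), which encodes a receptor for fibroblast growth factors. For *Stat3* the nearest genes were *Nfat5* (0.401), *Sec24a* (0.408) and *Sf1* (0.412), all at a greater distance. Among the members, *Jak2* was near *Socs3* (0.387) and *Il6st* (0.419), and *Osmr* was the farthest from the others (1.61 to 2.96). These distances describe 7 libraries that share their depth and their cell makeup with every gene in them.

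**Figure D2:**
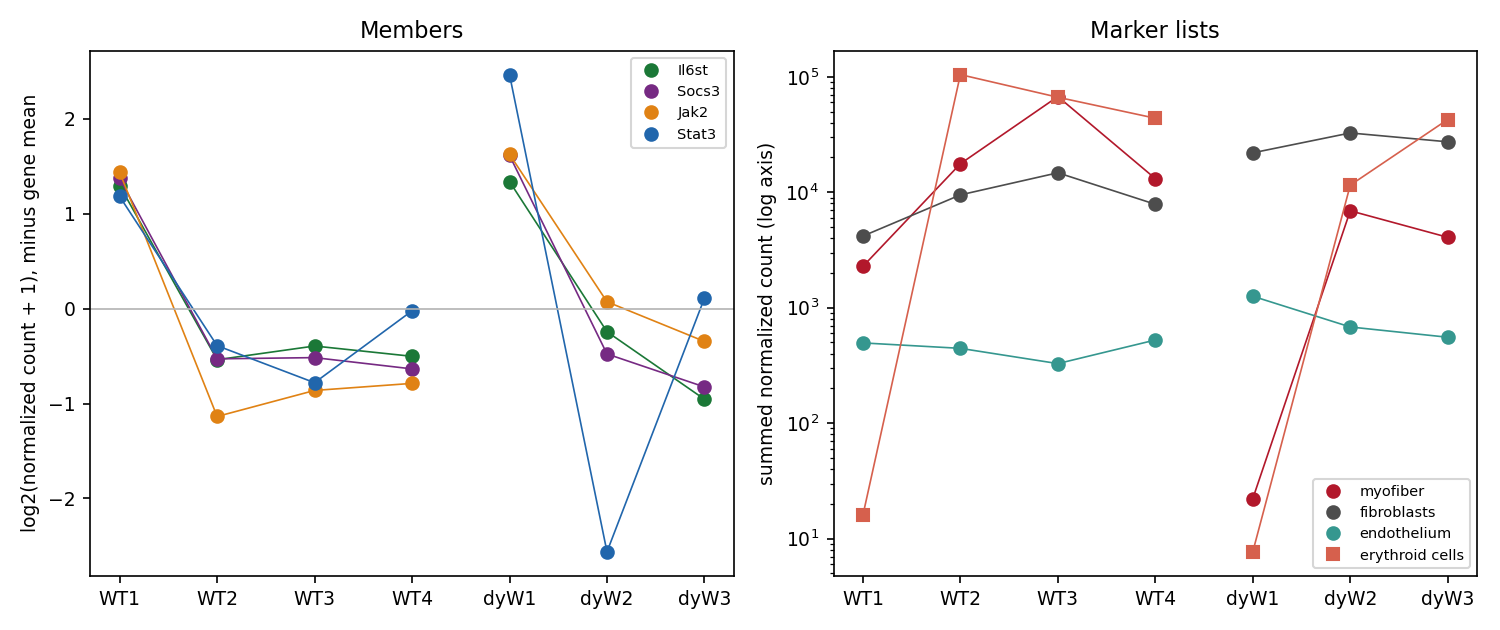
Left, log2(normalized count + 1) of 4 members minus each gene's mean over the 7 libraries. Right, summed normalized counts (log axis) of marker lists for myofibers, fibroblasts, endothelium and erythroid cells in the same libraries; lines join libraries of a genotype to guide the eye only. *Il6st* and *Socs3* lie almost on each other and are highest in WT1 and dyW1, the libraries with the least myofiber (2282 and 22.2) and erythroid RNA (16.0 and 7.70).

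Members were the highest of their group in dyW1 more often than genes in general. For WT1 the count was near the general share, except with ranks within each library. Library dyW1 was the highest dyW library for 9 of 9 members, beside 33.3% of the 6111 genes with a mean of at least 50, and this stayed at 9 of 9 when every library had the same total (44.1% of genes) and with ranks within each library (37.0%). Library WT1 was the highest WT library for *Il6st*, *Jak2*, *Stat3* and *Socs3*, thus 4 of 9 members beside 37.4% of genes (7 of 9 beside 63.0% when every library had the same total, and 4 of 9 beside 25.9% with ranks). Both libraries held the least myofiber and erythroid RNA of their group, and its part in the members' levels was not tested. With WT1 and dyW1 both left out, the log2 fold changes were -0.12 for *Il6st*, -0.09 for *Socs3*, -0.37 for *Jak1* and -0.83 for *Stat3*. They were -0.36 for *Stat5b*, -2.43 for *Osmr*, 0.79 for *Jak2* and 0.60 for *Stat5a*, and none of the 9 members passed the test. The log2 fold change of *Lifr* was then 1.49 (limma, adjusted p = 0.115).

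**Figure D3:**
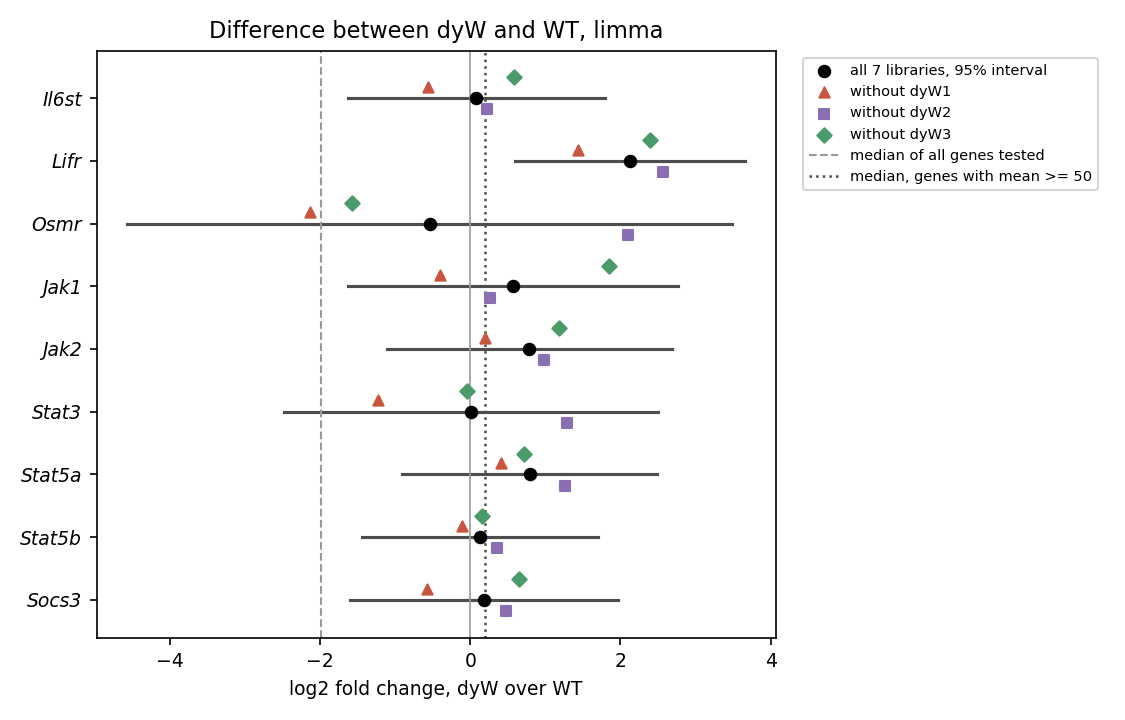
Log2 fold change (dyW over WT) of the 9 genes with all 7 libraries (black, with its 95% interval) and with each dyW library left out (coloured); the dashed line marks the median of all genes tested (-1.99) and the dotted line that of genes with a mean of at least 50 (0.20). The interval of *Lifr* is the one that lies above 0, and the estimates of *Osmr* run from -2.13 to 2.10 as single dyW libraries are left out.

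The members also varied more in dyW than in WT. Between the lowest and the highest library, the median member spanned 1.68 on the log2 scale in WT and 2.29 in dyW, beside 1.48 and 2.38 over the 6111 genes with a mean of at least 50. For 7 of 9 members the dyW range was the wider, as it was for 69.7% of those genes, so the members did as genes of their abundance did in general. *Jak2* and *Stat5b* were the exceptions, with a wider range in WT.

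Levels were compared between genes per kilobase of exon. In WT, *Socs3* was the highest at 62.1 ± 51.5 normalized counts per kilobase (SD, n = 4), and all 4 of its values lay above the highest value of the next gene, *Stat3* (14.9 ± 9.99). Below it came *Jak1* (10.7 ± 1.07), *Jak2* (10.3 ± 10.6), *Il6st* (9.64 ± 7.31), *Lifr* (7.16 ± 2.49), *Osmr* (5.93 ± 2.06), *Stat5b* (4.45 ± 2.49) and *Stat5a* (2.82 ± 1.44). From *Stat3* down, the ranges of each pair of neighbours overlapped, so their order is not fixed by these libraries. In dyW, *Socs3* was again the highest (77.8 ± 75.5 per kilobase, n = 3) and *Lifr* moved up to the second place (38.9 ± 35.1), above *Stat3* in all 3 libraries. The ranges of all neighbours overlapped in dyW.

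Most of these WT levels were close to those of genes that muscle is not known to use. The median of 1207 odorant and vomeronasal receptor genes was 0.632 to 2.48 reads per kilobase in the WT libraries, 0 in dyW1 and dyW2, and 1.07 in the library labelled dyW3. In units of that median, the middle of the 4 WT values was 0.532 for *Stat5a*, 1.01 for *Stat5b*, 1.19 for *Osmr* and *Jak2*, 1.38 for *Il6st*, 1.41 for *Lifr*, 2.14 for *Stat3* and 2.23 for *Jak1*. *Socs3* was the highest in every WT library, at 5.55 to 41.4 times the median, and WT1 was at 6.12 for *Il6st*, 7.75 for *Jak2* and 8.78 for *Stat3*. In the library labelled dyW3, the members lay between 5.01 (*Jak1*) and 57.8 (*Socs3*) times its median, with *Lifr* at 40.2. The mean of the receptor genes gave another picture of some libraries: it was 1.36 to 2.78 reads per kilobase in WT, 2.03 in dyW1, 0.187 in dyW2 and 14.4 in the library labelled dyW3. In units of that mean, *Il6st*, *Jak2* and *Stat3* in WT1 were at 2.84, 3.60 and 4.08. In the library labelled dyW3, *Jak1* was then at 0.371, *Lifr* at 2.97 and *Socs3* at 4.28. In dyW1 the members ranged from 31.1 (*Stat5b*) to 832 (*Socs3*) times the mean, with *Lifr* at 400.1, and in dyW2 from 0.865 (*Osmr*) to 1631 (*Socs3*), with *Lifr* at 696. The counts on receptor genes thus differed between libraries, and their part in the members' differences was not tested.

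**Figure D4:**
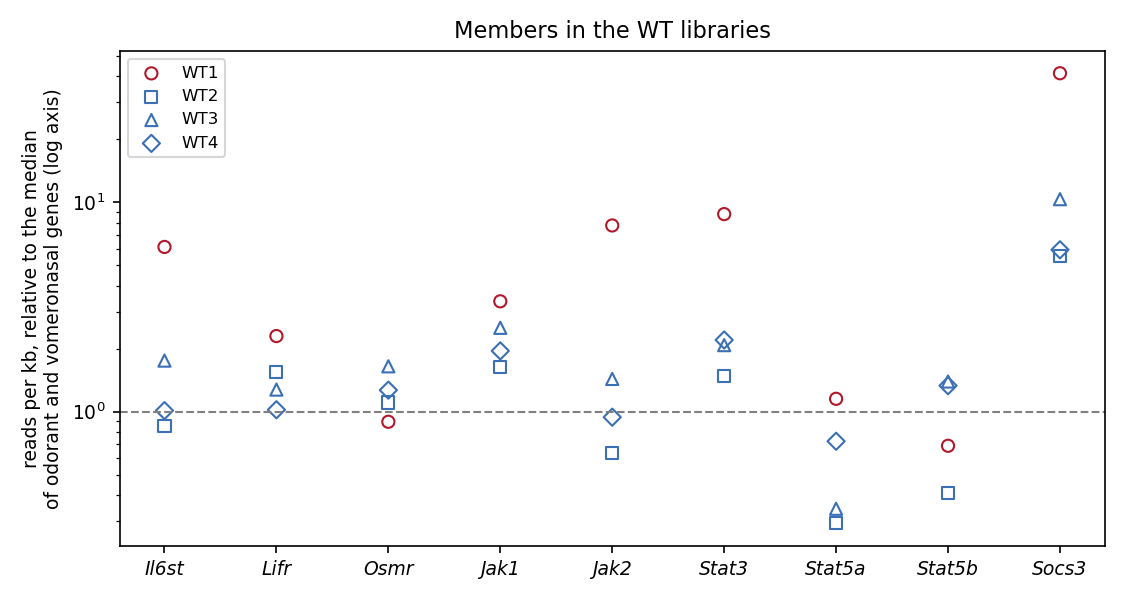
Reads per kilobase of each member in the 4 WT libraries, divided by the median of the 1207 odorant and vomeronasal receptor genes in the same library (log axis; dashed line at that median). *Socs3* lies above 5 in every WT library, WT1 (red circles) is high for *Il6st*, *Jak2*, *Stat3* and *Socs3*, and *Stat5a* is below the line in 3 of 4 libraries.

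Beyond the 9 members, 76 further genes of the pathway were examined in 7 lists, of which 74 were in the table and all 74 were tested. In dyW 16 were lower and 1 was higher (limma, adjusted p under 0.05), beside 29.6% and 1.01% of all genes. With every library at the same total, 9 were lower and 5 higher, beside 5349 and 1252 of all 25791 genes tested. With quantile normalization none passed in either direction (limma), beside 165 lower and 22 higher of all genes. Without WT2 9 were lower and without WT4 10, beside 5357 of 24157 and 5363 of 24289 genes. Of the 16, *Il11*, *Lif*, *Il27ra*, *Il31ra*, *Stat4*, *Prlr*, *Epor*, *Csf3r* and *Lcn2* passed with each single library left out in turn, and the calls of the other 7 were lost without at least 1 library. *Csf3r* was lost with WT1 and dyW1 both left out. Without the library labelled dyW3, the calls of *Il6*, *Tyk2*, *Pias3* and *Il7r* were lost (limma, adjusted p = 0.0705 to 0.0808). The genes called lower were of low count, and several had reads in the shallower WT libraries but few or none in the deeper dyW libraries. The size of such a fold change is set largely by the pseudocount, so that of *Lif* and the others describes this scale and not a fold of RNA.

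The ligands of the gp130 family had 4 of 9 members lower, with a median log2 fold change of -2.87 (-2.28 with every library at the same total and -0.07 with quantile normalization). Over all genes tested 29.6% were lower, and the median was -1.99 (-1.24 and -0.15 with these scalings). *Il11*, a cytokine known from fibrosis and bone, had 85.3, 35.1, 6.15 and 34.6 normalized counts in WT1 to WT4, 1.17 in dyW1 and no read in the other dyW libraries (log2 fold change -4.53, SE 0.948; limma, adjusted p = 0.00685). *Lif*, the ligand of the receptor encoded by *Lifr*, had 5.33, 27.0, 14.4 and 22.0 in WT1 to WT4 and 1 read in all dyW libraries together (-3.93, SE 0.739; limma, adjusted p = 0.00479). The log2 fold change of *Lif* was -6.81 with a pseudocount of 0.1, -1.36 with 10 and -0.76 with quantile normalization (limma, adjusted p = 0.661), its adjusted p was 0.0614 with the replicate block, and in each WT library it lay below the receptor-gene median (0.344 to 0.875 times). *Il6*, the founding cytokine of the family (-2.95; limma, adjusted p = 0.0453), and *Ctf1*, which encodes cardiotrophin (-2.67; limma, adjusted p = 0.0202), were also lower, but *Ctf1* was 0.47 with quantile normalization and overlaps *Ctf2* in the annotation. The 9 ligands had only 14 to 43 reads each over the 4 WT libraries, at 0.625 to 2.69 times the receptor-gene median.

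Of the 5 ligand-specific receptor chains 3 were lower, and the median log2 fold change was -4.09 (-4.30 with genes without a dyW read at their bound, and -1.35 with quantile normalization). Beside these stand 29.6% of all genes tested lower and a median of -1.99 (-0.15 with quantile normalization). *Il6ra*, which encodes the chain that binds IL-6, had 80.0, 78.2, 32.8 and 59.8 normalized counts in WT1 to WT4, no read in dyW1 and dyW2, and 22.5 in the library labelled dyW3. Its groups did not overlap (log2 fold change -4.40, SE 1.16; limma, adjusted p = 0.0189). *Il31ra*, for IL-31, was lower as well (-4.30; limma, adjusted p = 0.00478). *Il27ra*, for IL-27, had no read in any dyW library. On the deposited scaling it was at least 28.2-fold lower, against a floor of 3 reads in each dyW library, that is a mean of 0.712 normalized counts. With quantile normalization its log2 fold change was -1.35 (limma, adjusted p = 0.397), and in WT it lay at 0.707 times the receptor-gene median. The bound of *Il27ra* was 16.2-fold without WT2, the library with the most *Il27ra*, and 59.9-fold without the library labelled dyW3, whose floor is the highest. *Il11ra1*, with the most normalized counts of the 5 over the 7 libraries, had a mean of 69.7 ± 48.0 in WT (SD, n = 4), against 48.7 ± 59.1 in dyW (n = 3), and did not pass the test (limma, adjusted p = 0.447). The 5 receptor chains lay at 0.707 to 1.29 times the receptor-gene median.

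Of the 6 other JAK and STAT genes 2 were lower, with a median log2 fold change of -2.71 (-1.81 with every library at the same total and -0.79 with quantile normalization). For all genes tested the share lower was 29.6% and the median -1.99. *Tyk2*, the JAK family kinase that serves interferon receptors, had 122.6, 40.5, 26.7 and 56.6 normalized counts in WT1 to WT4 and 26.9, 1.26 and 3.42 in dyW1 to dyW3 (-3.03, SE 0.992; limma, adjusted p = 0.0464). *Stat4*, known from lymphocytes, had no read in any dyW library. On the deposited scaling it was at least 20.5-fold lower against the same floor (43.6-fold without the library labelled dyW3). With quantile normalization its log2 fold change was -1.07 (limma, adjusted p = 0.461). In WT it lay at 0.334 times the receptor-gene median, so the bound starts from a level below that of genes muscle is not known to use. *Stat2*, an interferon-response factor with the most normalized counts of its list over the 7 libraries, had 114 normalized counts in dyW1, 1.01 in dyW2 and 0 in the library labelled dyW3, against 24.6 to 85.3 in WT, and did not pass the test (limma, adjusted p = 0.172).

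Among 14 further inhibitors of the pathway 2 were lower, beside 29.6% of all genes tested. The median log2 fold change of the 14 was -0.01 (1.11 with every library at the same total and 0.41 with quantile normalization). *Pias3*, whose product inhibits STAT3 in the nucleus (-3.68; limma, adjusted p = 0.0396), and *Ptpn6*, a phosphatase gene known from blood cells (-3.69; limma, adjusted p = 0.0185), were those called. *Pias1*, with the most normalized counts over the 7 libraries, had a mean of 76.2 ± 41.5 in WT (SD, n = 4), against 156 ± 104 in dyW (n = 3; limma, adjusted p = 0.297). None of the 4 adaptor genes, which link gp130 to the RAS-MAPK pathway, passed the test in either direction (limma, 0 also at an unadjusted p under 0.05 and 0 with voom). Their median log2 fold change was 0.45 (1.57 with every library at the same total and 0.58 with quantile normalization). *Ptpn11*, which encodes the phosphatase SHP2 and had the most normalized counts of them over the 7 libraries, was at 76.7 ± 38.0 in WT and 141 ± 43.2 in dyW (limma, adjusted p = 0.262).

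The 17 other receptors that signal through JAKs had a median log2 fold change of -1.37 (-0.33 with every library at the same total and 0.03 with quantile normalization). Over all genes tested the median was -1.99 and 29.6% were lower. Of the 17 receptors, 4 were lower. These were the prolactin receptor *Prlr* (-4.77; limma, adjusted p = 0.00738), the erythropoietin receptor *Epor* (-4.50; limma, adjusted p = 0.00372), the granulocyte receptor *Csf3r* (-4.70; limma, adjusted p = 0.00832) and the lymphoid receptor *Il7r* (-3.19; limma, adjusted p = 0.0482). Several of the genes called lower in these lists are known from blood cells, and the pan-leukocyte marker *Ptprc* had no read in dyW1 and dyW2, 99.6 normalized counts in the library labelled dyW3 and 58.6 to 119.6 in WT (log2 fold change -4.26; limma, adjusted p = 0.0627). *Cd68* went another way, at 39.2, 31.4 and 32.7 in dyW1 to dyW3 against 8.09 to 34.6 in WT (0.90; limma, adjusted p = 0.346). *Adgre1* (0, 0 and 44.4 in dyW1 to dyW3) and *C1qa* (0, 0.126 and 77.2) were above every WT library in the library labelled dyW3 alone. Their log2 fold changes were -2.36 and -1.47, and those of *Csf1r* and *Lyz2* were -2.29 and -2.34. None of these 4 genes passed the test (limma, adjusted p = 0.145 to 0.484). The sum of the 6 immune genes examined was 112 to 547 in WT and 58.1 to 297 in dyW, with 4 of the 6 at 0 in dyW1, *Ptprc* and *Adgre1* among them, and the part of immune cells in these differences was not tested. The growth hormone receptor *Ghr*, which acts through STAT5 and had the most normalized counts of the list over the 7 libraries, reached a mean of 86.2 ± 24.6 in WT (SD, n = 4), against 152 ± 58.0 in dyW (n = 3; limma, adjusted p = 0.311).

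Among 19 known targets of STAT3 or STAT5 the median log2 fold change was -0.17 (0.94 with every library at the same total and 0.26 with quantile normalization). Of the 19, 1 gene was higher and 1 lower, beside 1.01% and 29.6% of all genes tested. *Igf1*, the growth factor gene that STAT5B drives in liver and that fibroblasts also express, had 53.3, 159, 229.7 and 113 normalized counts in WT1 to WT4, and 252, 1353 and 1489 in dyW1 to dyW3. Every dyW library was above every WT library, with a log2 fold change of 2.70 (SE 0.784, 95% interval 0.92 to 4.48; limma, adjusted p = 0.0285). The call was lost when WT1, WT2, WT4, dyW2 or the library labelled dyW3 was left out (limma, adjusted p = 0.0623 to 0.0904). The summed fibroblast markers were also higher in every dyW library than in any WT library and, like *Igf1*, lowest of the dyW libraries in dyW1, and their part in this difference was not tested. *Lcn2*, an acute-phase gene that STAT3 induces, had 6.15 to 28.3 normalized counts in WT and 1 read in all dyW libraries together (-4.16, SE 0.740; limma, adjusted p = 0.00441). *Fos*, the target with the most normalized counts, had a mean of 2392 ± 1650 in WT (SD, n = 4), against 1230.1 ± 847 in dyW (n = 3), and did not pass the test (limma, adjusted p = 0.357).

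**Figure D5:**
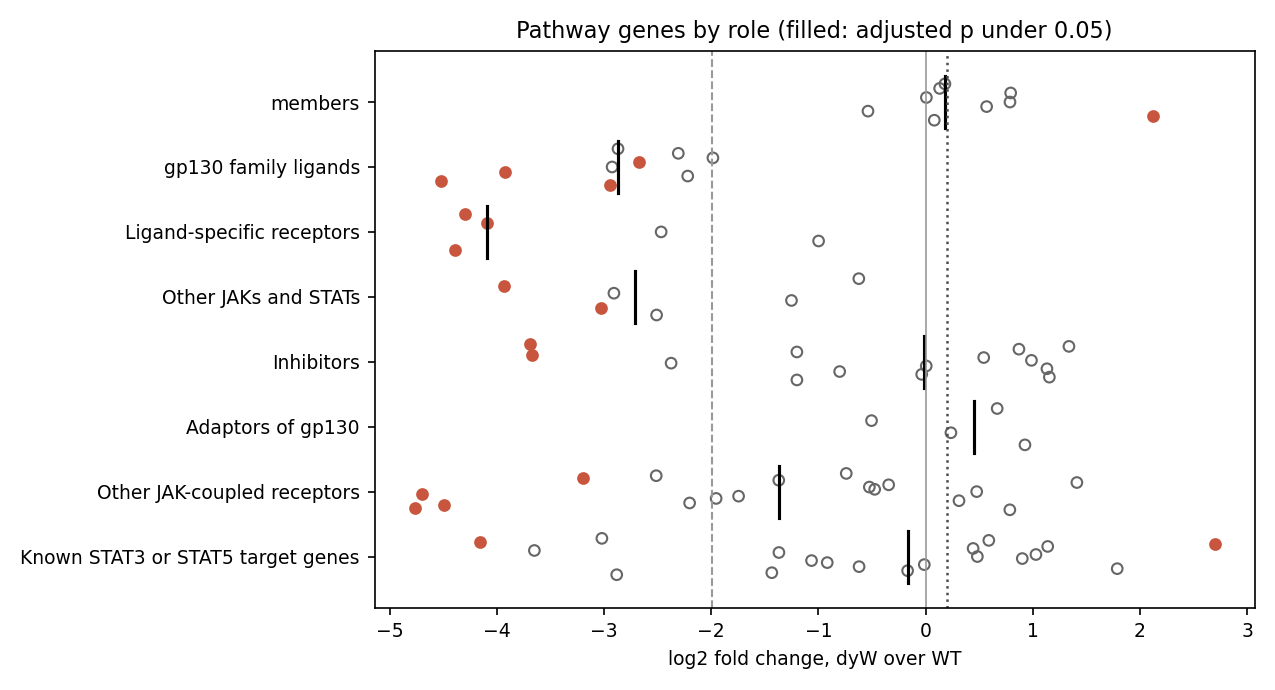
Log2 fold change (dyW over WT) of the 9 members and of the 74 further pathway genes by role, filled where the adjusted p is under 0.05, with a bar at each list's median; the dashed line marks the median of all genes tested (-1.99) and the dotted line that of genes with a mean of at least 50 (0.20). *Lifr* and *Igf1* are the filled points on the right, and the filled points on the left are the 16 genes called lower.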

How the data were processed

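The members and the lists were chosen with earlier results of these data known. The authors ran Cutadapt, then RNA STAR against GRCm39, counted uniquely mapped reads per gene by FeatureCounts, and deposited counts divided by a DESeq2 size factor per library. The tool versions, annotation release and strand setting are not given in the sources used here. The deposited table of the authors' comparison (fold changes and p-values) was not used. Gene coordinates and exon lengths are from GENCODE mouse release 39, and promoter windows from RefSeq (GRCm38.p6 table), each found once in GRCm39 by exact match.

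In each library, 100% of normalized counts above 0 were whole multiples of the value of 1 read (within 0.1 read), which gave the reads: 470804 to 18297106. These cover counting error only, since PCR copies were not marked. Log2(normalized count + 1) was compared in R 4.3.3 by limma 3.58.1 (a linear fit with trended eBayes) over 25791 genes with a mean of at least 5, with Benjamini-Hochberg adjustment. Other steps ran in Python 3.11.15 (scipy 1.17.1, pandas 2.3.3, numpy 2.4.6; plots by matplotlib 3.10.9). The fit was tested on simulated data with large changes in genes with a mean of at least 50 and the same dispersion in both groups. It does not show how the fit does for changes in low-count genes or for the wide spread within dyW. The named genes are the members, the called genes and the gene with the highest mean normalized count of each list, the 3 genes nearest to *Stat3*, *Il6st* and *Socs3*, and *Lama2*. Alternatives were other pseudocounts (0.1 and 10), filters, scalings, a replicate block and each library left out; voom and leaving out WT1 and dyW1 together were added after seeing the data.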

Additional observations from a re-analysis of the deposited data

Results flagged for a closer look

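In the WT group, where 4 libraries allow a check for a value far from the rest, 26 of the named genes were examined, and chance flags about 1 in 20. WT1 stood apart for *Il6st* (319.9 normalized counts, the nearest other library at 98.5), for *Jak2* (165.3, nearest 34.6) and for *Socs3* (495.8, nearest 133.3), and these are the members that lay close to each other over the 7 libraries. The values of WT1 rest on 60, 31 and 93 reads. For *Jak1*, WT3 was the library that stood apart (98.46 normalized counts, the nearest other at 118.7), in a group that spanned 1.25-fold. The 3 dyW libraries are too few for the same check.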

How the results depend on the processing

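The number of members called higher (1, *Lifr*) was 0 with a pseudocount of 10, a mean of at least 50, quantile normalization, the replicate block and voom, and 0 to 2 as libraries were left out (2 without dyW3: *Lifr* and *Jak1*). No setting called a member lower. With the replicate block, WT4 has no dyW library of its number, so the log2 fold changes equal those without WT4. The log2 fold change of *Lifr* was 2.03 with a pseudocount of 10 (adjusted p = 0.0515), 2.13 with a mean of at least 50 (0.121), 1.60 with quantile normalization (0.343), 2.06 with the replicate block (0.112), 2.25 with voom (0.193), 3.27 with the same total (0.0201) and 1.43 (without dyW1) to 2.56 (without dyW2) with libraries left out, all from limma. The other pathway genes called lower (16) were 0 with a mean of at least 50, which leaves all 16 untested, 0 with quantile normalization or the replicate block, 9 with the same total, and 9 (without WT2) to 21 (without dyW1) with libraries left out, 10 without WT4. Those called higher (1) were 0 with a mean of at least 50, quantile normalization, the block or voom, 5 with the same total, and 0 to 1 with libraries left out. Over all 25791 genes, 5349 were lower and 1252 higher with the same total. Signs turned for members that did not pass the test: *Il6st* was -0.52 with quantile normalization, -0.074 with the block and -0.56 to 0.58 with libraries left out; *Osmr* was 0.32 with a pseudocount of 10, 0.49 with the same total, 0.37 with quantile normalization and -2.43 to 2.10; *Jak1* was -0.044 with quantile normalization and -0.40 to 1.85; *Stat3* was -0.0045 with a pseudocount of 0.1, -0.33 with quantile normalization and -1.22 to 1.29; *Stat5b* was -0.36 to 0.44; *Socs3* was -0.61 with quantile normalization, -0.0049 with the block and -0.57 to 0.66. *Ctf1*, called lower, was 0.47 with quantile normalization. The cause was not tested. Same-numbered libraries deviated together for 1 pair alone (r = 0.147, -0.049 and -0.088), and the largest r was that of WT3 with dyW2 (0.225). These values gave no sign of pairing by number, and they cannot show whether libraries share a litter or a batch. The 2 planned count tests (edgeR and DESeq2) were not run, and voom stood in for them. The WT depth, 3 to 93 reads per member and library, limits what could be seen.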
